A study of Mus musculus with 24 samples.

Results

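The Mirg cluster is a run of miRNA hairpins on mouse chromosome 12, within the imprinted Dlk1-Dio3 locus. Its members were chosen by name from the raw count tables, as every mature miRNA of 36 named hairpins, from miR-379 to miR-410 and the more distal miR-3072. The names matched 68 of 1531 mouse entries, and 51 of the 68 had a mean above 10 CPM (the count of a miRNA scaled to the library total) in at least 1 brain region. All 51 are described here. They numbered 25 miRNAs from the 5p arm (the 5′ side of the hairpin) and 26 from the 3p arm.

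The Dlk1-Dio3 locus is expressed by parental origin, with its protein-coding genes transcribed from the paternal chromosome and its long noncoding RNAs, small nucleolar RNAs and miRNAs from the maternal one. The miRNAs of this cluster are thought to be processed from a long polycistronic transcript, so that many hairpins share 1 source of RNA, and each hairpin can yield a mature strand from either arm. The cluster is strongly expressed in brain and placenta, and in neurons it is known for induction by activity, for the dendritic role of miR-134 and miR-329 and for the synaptic role of miR-485.

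MiRNA was measured by small RNA sequencing in 24 libraries, from the cerebellum, striatum/thalamus and cortex of the right hemisphere of 8 CD1 mouse pups of both sexes. Hypoxic-ischemic brain injury (HIBI) was induced in 4 pups (pups 1, 4, 5 and 7) at postnatal day 9 by cautery of the right common carotid artery, 2 h of recovery and 30 min in 8% oxygen. The 4 sham pups (pups 2, 3, 6 and 8) had the same anaesthesia, analgesia and neck dissection without ligation, and 30 min away from the dam in normoxia. Tissue was taken 30 min later. No group received hypoxia alone or ligation alone, so the components of the injury cannot be told apart, and the sexes were not separated. Each library came from 1 region of 1 pup, so the p-values of fits within 1 region measure the spread between pups. Fits over all 24 libraries treated them as independent although each pup gave every region, except where the pup was a block. Without the block, their p-values do not measure the spread between pups alone.

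Library depth ran from 1254185 to 3406624 mouse miRNA counts, so that 10 CPM stood for 12.5 to 34.1 counts. Except where raw CPM is named, every miRNA level below is a CPM scaled with TMM factors (trimmed mean of M values) over all 24 libraries, and every fold change is a log2 value with its standard error. All 3 brain miRNAs listed as markers (such as miR-124-3p, a neuronal miRNA) were detected, with a summed level of 75990 to 220100 CPM. Markers of another tissue and of a glial cell type differed between the dissected regions. The summed level of 3 skeletal muscle miRNAs was 367 to 657 CPM in the cerebellum, 38.6 to 149.5 CPM in the striatum/thalamus and 28.4 to 63.0 CPM in the cortex, and that of 2 oligodendrocyte miRNAs was 4719 to 8400, 1027 to 4436 and 830 to 2474 CPM. The muscle list did not move as 1 in the cerebellum. There miR-206-3p had 268.2 to 522.4 CPM, miR-1a-3p 43.2 to 377.5 CPM and miR-133a-3p 5.48 to 16.03 CPM. The source of these miRNAs and their part in the results were not tested.

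The mature sequences are shown first because the members resemble each other, and reads of similar members could have been assigned to either. Sequences were available for 48 of the 51 reported members in RefSeq (GRCm38.p6), and miR-376c-3p, miR-487b-3p and miR-485-5p are named only. The sequences are written 5′ to 3′, with the seed (bases 2 to 8, the stretch that pairs with a target mRNA) in capitals. The first set holds the members of highest level with a listed sequence.
miR-541-5p: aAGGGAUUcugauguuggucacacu
miR-323-3p: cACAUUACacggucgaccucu
miR-382-5p: gAAGUUGUucgugguggauucg
miR-409-3p: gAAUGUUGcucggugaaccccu
miR-410-3p: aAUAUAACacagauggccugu
The next set holds other members on which the comparisons of injury turn.
miR-410-5p: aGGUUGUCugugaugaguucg
miR-409-5p: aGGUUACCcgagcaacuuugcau
miR-376b-3p: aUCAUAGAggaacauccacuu
miR-668-5p: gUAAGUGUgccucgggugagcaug
miR-487b-5p: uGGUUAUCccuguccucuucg
miR-154-5p: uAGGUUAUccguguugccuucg
miR-154-3p: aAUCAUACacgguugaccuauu
The third set holds members named for the comparisons of regions.
miR-412-5p: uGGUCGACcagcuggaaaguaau
miR-543-3p: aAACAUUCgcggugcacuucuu
miR-485-3p: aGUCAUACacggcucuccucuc
miR-300-3p: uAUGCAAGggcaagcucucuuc
miR-541-3p: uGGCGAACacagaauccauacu
miR-323-5p: aGGUGGUCcguggcgcguucgc
miR-329-3p: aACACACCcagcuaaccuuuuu
The last set holds the members that share a whole seed with another member, where miR-410-5p from above shares that of miR-494-5p. Of these, miR-1193-5p, miR-494-5p, miR-758-5p, miR-1197-5p and miR-376c-5p were below the minimum in every region.
miR-379-5p: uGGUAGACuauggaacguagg
miR-1193-5p: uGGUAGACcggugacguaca
miR-379-3p: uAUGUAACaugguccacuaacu
miR-411-3p: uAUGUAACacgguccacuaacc
miR-494-5p: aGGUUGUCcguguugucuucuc
miR-758-5p: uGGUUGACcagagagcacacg
miR-1197-5p: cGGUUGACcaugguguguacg
miR-376b-5p: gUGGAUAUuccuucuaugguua
miR-376c-5p: gUGGAUAUuccuucuauguuua

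The members shared letters within their seeds that the choice by name did not use. No reason for looking at these letters was set beforehand, so the shares describe the sequences and are not a test. The letters GGU stood at bases 2 to 4 in 13 of the 34 member 5p sequences (38.2%), against 7 of 508 other mouse 5p sequences (1.38%). It stood there in 2 of 15 5p sequences (13.3%) of the other miRNAs of the Dlk1-Dio3 locus. None of the 31 member 3p sequences held GGU there. On the 3p side, AU stood at bases 2 to 3 in 9 of the 31 members (29.0%) and in 28 of 521 others (5.37%), and in none of the 34 member 5p sequences. The seed of miR-410-3p, AUAUAAC, was also that of miR-344d-3p and miR-344e-3p, which are not members.

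Near-identical pairs limit a few values. The 2 arms of miR-299a had no mismatch to those of miR-299b, an entry outside the cluster, to which 18 and 3 reads were assigned against 1797 and 455 for miR-299a. MiR-376b-5p and miR-376c-5p differed by 1 base, with 2315 and 8 reads over all libraries. MiR-379-3p and miR-411-3p differed by 2 bases, with 18976 and 64915 reads. How reads that matched several entries were assigned is not given in the sources used here, so the split within these pairs is uncertain.

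The 35 hairpins of the members in the genome annotation lay on the plus strand of chr12:109709060-109747960 (GRCm38), a span of 38.9 kb. The annotated Mirg gene, a long noncoding RNA, lay at chr12:109729764-109749460, so 22 of the 35 hairpins were upstream of its annotated start. Of the other 13, 4 lay in exons, 5 partly in an exon and 4 in introns. The hairpin of miR-541 (chr12:109742409-109742498) was intronic and that of miR-410 (chr12:109743715-109743795) was exonic.

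The level of the cluster rested on a few strands. MiR-487b-3p alone was 21.1% of the summed level of the members over the 24 libraries, and the 6 members of highest level together were 67.0%. MiR-487b-3p ranked 15 among all mouse entries by mean level, and 25, 12 and 12 within the cerebellum, striatum/thalamus and cortex. It had 8505 ± 2767 CPM in the cerebellum, 21360 ± 4475 CPM in the striatum/thalamus and 19700 ± 2319 CPM in the cortex (mean ± SD, n = 8). MiR-541-5p came next, with 5989 ± 1503, 12610 ± 2259 and 12000 ± 1455 CPM in the same order of regions, and then miR-323-3p, with 4427 ± 1509, 13260 ± 1786 and 7839 ± 973 CPM. MiR-382-5p had 3882 ± 1473, 10840 ± 2943 and 6336 ± 1138 CPM. The last of the 6 were miR-409-3p, with 2699 ± 688, 8301 ± 1003 and 6476 ± 1199 CPM, and miR-410-3p, with 3076 ± 1138, 5052 ± 984 and 4892 ± 578 CPM. Each of the 6 was lowest in the cerebellum, and the order within the 6 differed between regions. MiR-323-3p was above miR-541-5p in the striatum/thalamus, miR-410-3p above miR-409-3p in the cerebellum and miR-409-3p above miR-382-5p in the cortex, each by less than the SDs of the pair. By mean level, 16 members were above 1000 CPM, 15 lay between 100 and 1000 CPM and 20 of the reported members were at or under 100 CPM, down to 8.12 CPM for miR-134-3p.

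**Figure D1:**
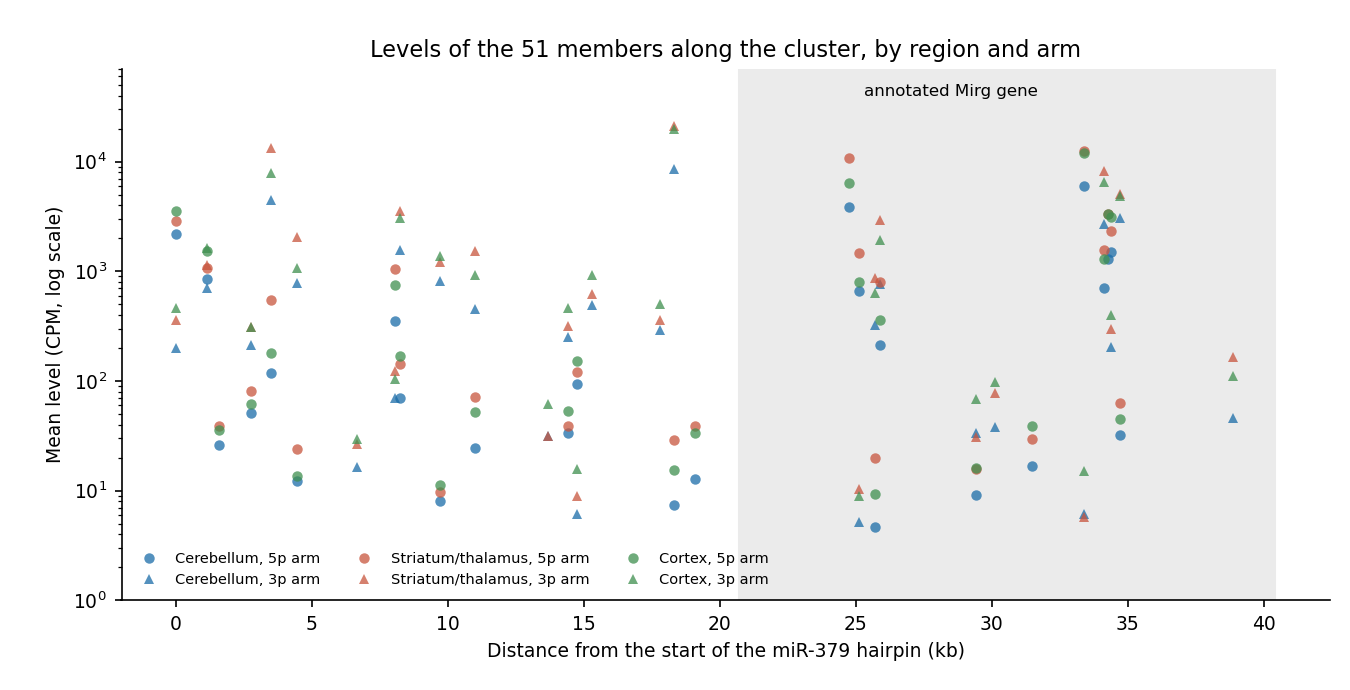
Mean level of each reported member over the 8 libraries of a region (CPM, log axis) against the distance of its hairpin from the start of the miR-379 hairpin (kb), with circles for 5p strands, triangles for 3p strands, a colour for each region and the annotated Mirg gene in grey. High and low members are interspersed along the 38.9 kb, and the strands of a hairpin often lie far apart.

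The other 17 members were not above 10 CPM in any region, and none of these had zero reads. They were miR-299a-3p, miR-300-5p, miR-376c-5p, miR-377-3p, miR-381-5p, miR-382-3p, miR-412-3p, miR-496a-5p, miR-758-5p, miR-1193-5p and miR-3072-5p, with both arms of miR-494, miR-679 and miR-1197. The minimum was applied to raw CPM. MiR-299a-3p was nearest below it, with 9.91 raw CPM in its highest region, and miR-134-3p and miR-495-5p were nearest above it, with 10.5 and 11.2 raw CPM. The reported members held 99.95% of the summed level of all 68.

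The first question of the design is how the cluster differs between regions. Most members were called lower in the cerebellum than in the cortex (42 of 51) and than in the striatum/thalamus (36 of 51). Of all miRNAs tested, 25.5% were called lower in the cerebellum than in the cortex and 31% than in the striatum/thalamus. The forebrain regions differed in 15 members, in both directions, which was 29.4% of the members against 42.9% of all miRNAs. Over both injury groups, the summed level of the 68 members was 44180 ± 12150 CPM in the cerebellum, 103300 ± 9022 CPM in the striatum/thalamus and 87100 ± 7209 CPM in the cortex (mean ± SD, n = 8). The highest cerebellum library, at 59720 CPM, was below the lowest of the striatum/thalamus, at 88120 CPM, and of the cortex, at 78040 CPM. In bulk tissue, fewer cells that express the cluster and less of its RNA per cell cannot be told apart.

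Region differences were tested with edgeR's quasi-likelihood test over the 24 libraries and all 478 miRNAs above the minimum, and called at a fold change above 1.5 with an adjusted p under 0.05. Between cortex and cerebellum, 42 of the 51 members were called higher in the cortex, against 25.5% of all miRNAs tested, and none was called lower. The median log2 fold change was 0.96 over the members and −0.17 over all miRNAs. Because 7 members passed the minimum through some regions only, the count was also taken over the 44 members above the minimum in every region, of which 37 were called higher.

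MiR-409-3p had 1810 to 3906 CPM in the cerebellum and 5191 to 8375 CPM in the cortex, with no overlap between the regions. Its log2 fold change was 1.27 ± 0.15 (SE), with adjusted p = 7.16e-08 by edgeR. MiR-412-5p had 659.0 to 1697 CPM in the cerebellum and 2244 to 4506 CPM in the cortex, a log2 fold change of 1.40 ± 0.17 (edgeR adjusted p = 1.59e-07). MiR-543-3p, which is known to target N-cadherin in neural progenitors, had 1192 to 1969 CPM in the cerebellum and 2831 to 3299 CPM in the cortex, a log2 fold change of 0.97 ± 0.12 (edgeR adjusted p = 2.72e-07). For each of these 3 members, every cortex library was above every cerebellum library. The member of highest level, miR-487b-3p, was 1.23 ± 0.17 higher on the log2 scale (edgeR adjusted p = 1.18e-06). Among the 9 members not called were miR-134-5p, known to limit dendritic spine size (0.30, edgeR adjusted p = 0.0693), and miR-410-5p (0.51, edgeR adjusted p = 0.173). MiR-329-3p fell short in fold change alone (0.46, edgeR adjusted p = 0.00877).

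Between striatum/thalamus and cerebellum, 36 of the 51 members were called higher, against 31% of all miRNAs tested, and none was called lower. The median log2 fold change was 0.99 over the members and 0.01 over all miRNAs. Of the 44 members above the minimum in every region, 32 were called higher. MiR-485-3p had 533.6 to 1155 CPM in the cerebellum and 2161 to 4603 CPM in the striatum/thalamus, and its log2 fold change was 1.92 ± 0.17 (edgeR adjusted p = 1.14e-09). Its partner arm miR-485-5p had 162.2 to 280.4 CPM in the cerebellum and 489.2 to 1158 CPM in the striatum/thalamus, a log2 fold change of 1.89 ± 0.18 (edgeR adjusted p = 1.92e-09). Both arms of this hairpin, whose miR-485-5p is known for its action on a synaptic vesicle protein, were separated without overlap. MiR-409-3p differed by 1.63 ± 0.15 (edgeR adjusted p = 1.14e-09). Only miR-154-3p (−0.08, edgeR adjusted p = 0.841) and miR-541-3p (−0.07, edgeR adjusted p = 0.872) had fold changes below 0.

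Between the forebrain regions, 15 of the 51 members were called. In the cortex 4 were higher, against 18.6% of all miRNAs tested, and 11 were lower, against 24.3%. Over the 44 members above the minimum in every region, 3 were called higher and 9 lower. MiR-541-3p passed the minimum in the cortex alone and miR-668-5p in the striatum/thalamus alone, so the filter favoured the direction of each call. MiR-487b-5p passed the minimum in both of these regions but not in the cerebellum. The split depended on the minimum. With no minimum, 11 of the 68 members were called higher and 4 lower, and with a minimum of 1 CPM 6 of the 14 called were higher. The minimum sets both the miRNAs fitted and the TMM factors, and which of these moved the split was not tested. The median of the 51 members was −0.08, and 0.12 with no minimum. The members called lower in the cortex were both arms of miR-323, miR-329 and miR-485, together with miR-134-5p, miR-382-5p, miR-487b-5p, miR-667-3p and miR-668-5p. MiR-323-5p had 293.4 to 792.8 CPM in the striatum/thalamus and 133.4 to 241.5 CPM in the cortex, with no overlap, and its log2 fold change was −1.60 ± 0.21 (edgeR adjusted p = 2.65e-06). MiR-329-3p had 1788 to 2274 CPM in the striatum/thalamus and 919.1 to 1203 CPM in the cortex, also without overlap (log2 fold change −0.97 ± 0.15, edgeR adjusted p = 1.11e-05). MiR-485-5p overlapped in no library, at 253.6 to 477.0 CPM in the cortex (log2 fold change −1.14 ± 0.17, edgeR adjusted p = 1.11e-05). MiR-134-5p was lower by a log2 fold change of −0.86 (edgeR adjusted p = 3.25e-05).

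The 4 members called higher in the cortex than in the striatum/thalamus were all 3p strands. MiR-300-3p had 506.0 to 749.4 CPM in the striatum/thalamus and 786.7 to 1045 CPM in the cortex, with no overlap. Its log2 fold change of 0.60 ± 0.13 (edgeR adjusted p = 0.000686) was just past the 1.5-fold criterion, and without pup 3, 4 or 8 it was 0.55, 0.55 and 0.56 and fell short of it. MiR-541-3p, the strand of low level from a hairpin whose 5p strand is abundant, had 2.06 to 11.2 CPM and 7.98 to 25.5 CPM in the same order, so its libraries overlapped (1.39 ± 0.36, edgeR adjusted p = 0.00289). MiR-154-3p had 13.7 to 73.5 CPM and 48.6 to 101.3 CPM and overlapped as well (1.16 ± 0.34, edgeR adjusted p = 0.00728). MiR-376c-3p was the fourth (0.98, edgeR adjusted p = 0.0183). In the sham pups alone, 7 members were called between these regions, and the adjusted p from edgeR was 0.088 for miR-541-3p and 0.236 for miR-154-3p.

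**Figure D2:**
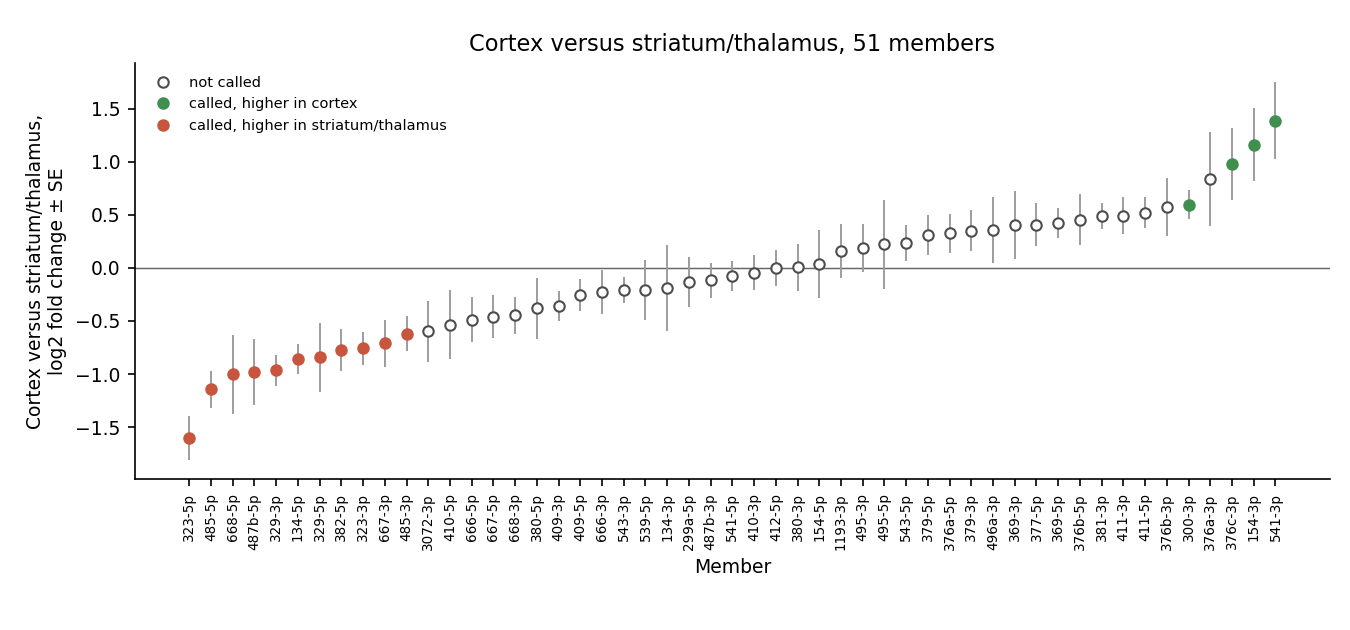
Cortex against striatum/thalamus for the 51 reported members, sorted by log2 fold change, with points for the estimate, bars for 1 SE and called members marked. The values run from −1.60 for miR-323-5p to 1.39 for miR-541-3p around a median of −0.08, which was 0.12 with no minimum. MiR-541-3p passed the minimum in the cortex alone, which favoured a higher value there.

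The other miRNAs of the Dlk1-Dio3 locus, taken as a list of 31 entries outside the cluster, gave 21 miRNAs above the minimum. Of these, 18 were called higher in the cortex and 16 in the striatum/thalamus than in the cerebellum, against 25.5% and 31% of all miRNAs tested. None was called lower. Between cortex and striatum/thalamus, 1 was called higher and 6 lower, against 18.6% and 24.3% of all miRNAs. Their summed level was 39060 ± 12440 CPM in the cerebellum, 108600 ± 14240 CPM in the striatum/thalamus and 68110 ± 7834 CPM in the cortex (mean ± SD, n = 8).

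The arms of a hairpin come from the same precursor, and their ratio is taken within a library, in which depth and scaling cancel. Both arms were above the minimum for 20 member hairpins, among 125 hairpins of the whole table. The 3p arm was higher in 13 of the 20 and the 5p arm in 7, while over all 125 hairpins the 5p arm was higher in 50.4%. The median size of the log2 ratio was 4.04 for the members and 3.51 for all. The ratio exceeded 16-fold in 10 member hairpins and was under 2-fold in 1, miR-411.

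MiR-541 had the largest mean 5p excess, a log2 ratio of 10.31, and miR-487b the largest 3p excess, −10.09. The higher arm was the same in all 24 libraries for 18 of the 20, with miR-154 and miR-411 as exceptions.

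Arm ratios were compared between regions with limma on log2((5p counts + 0.5)/(3p counts + 0.5)) over the 125 hairpins. Between striatum/thalamus and cerebellum, 4 member hairpins were called at an adjusted p under 0.05, against 32% of all hairpins tested. The log2 ratio of miR-666 ran from 1.94 to 2.70 in the cerebellum and from 2.80 to 3.35 in the striatum/thalamus, so every striatum/thalamus library had the larger share of the 5p arm (difference 0.79, limma adjusted p = 0.000515). MiR-323 differed by 0.57 (limma adjusted p = 0.014), miR-541 by 1.06 (limma adjusted p = 0.0141) and miR-409 by −0.43 (limma adjusted p = 0.017). The number called was 1 without pup 7 and 2 without pup 8. Between cortex and striatum/thalamus, 3 member hairpins were called, against 26.4% of all hairpins, each with a lower 5p share in the cortex. They were miR-323 (difference −0.81, limma adjusted p = 0.00239), miR-541 (−1.45, limma adjusted p = 0.00301) and miR-485 (−0.55, limma adjusted p = 0.022). The miR-541 hairpin entered the test only because its 3p strand passed the minimum in the cortex (14.9 raw CPM, against 5.71 in the striatum/thalamus and 6.33 in the cerebellum), so a lower 5p share in the cortex was favoured by the filter. The call of miR-485 was lost without pup 1 and without pup 3 (limma adjusted p = 0.0575 and 0.0899).

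Between cortex and cerebellum, 2 member hairpins were called, against 4.8% of all hairpins. MiR-666 had a mean log2 ratio of 2.84 in the cortex and 2.31 in the cerebellum (difference 0.53 ± 0.15, limma adjusted p = 0.0391). MiR-485 had −2.43 and −1.84 (difference −0.59 ± 0.17, limma adjusted p = 0.0391). Both lost the call in the fit with the pup as replicate block (limma adjusted p = 0.0731 for each). The number called was 0 without pup 2, 3, 4, 5, 7 or 8 and 1 without pup 6. For miR-541, the 3p strand had 1.14 to 11.4 CPM in the cerebellum, so its ratio rested on few 3p counts.

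**Figure D3:**
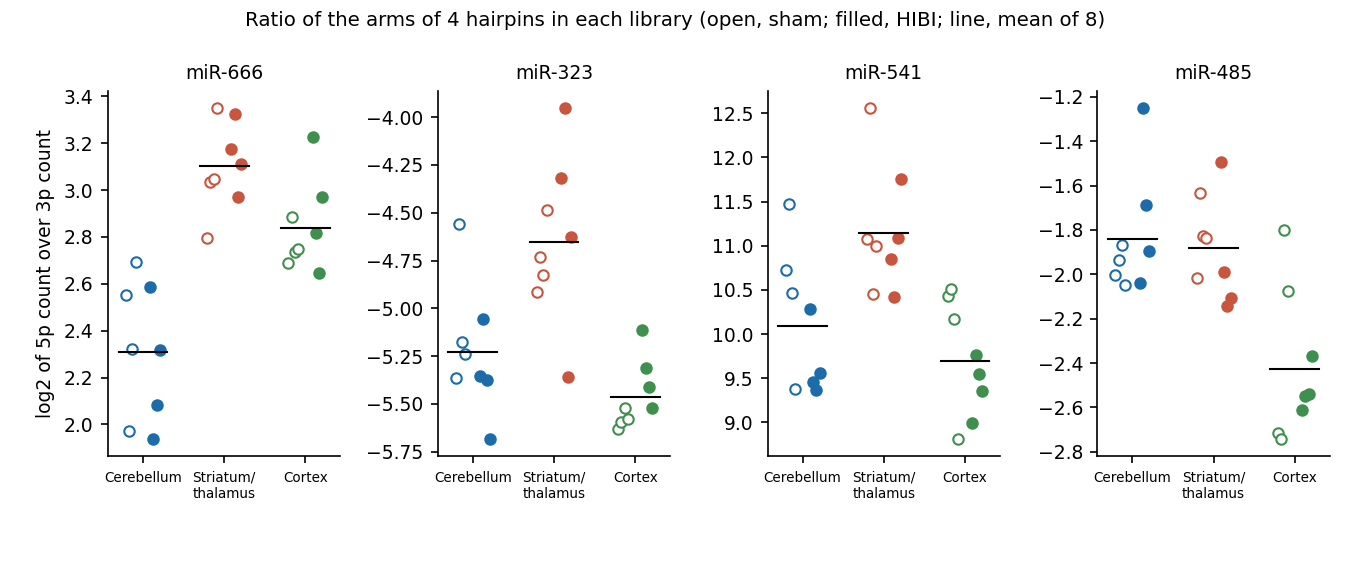
Log2 ratio of 5p to 3p counts in each library for the hairpins miR-666, miR-323, miR-541 and miR-485, by region, with open symbols for sham, filled symbols for HIBI pups, a line for the mean of 8 and a separate scale for each hairpin. For miR-666 the striatum/thalamus libraries sit at 2.80 to 3.35, above all cerebellum libraries at 1.94 to 2.70, and for miR-541 the regions overlap.

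The second question of the design is what HIBI changed 30 min after hypoxia. In the cerebellum, the fold change between HIBI and sham pups was above 0 for nearly all members, and the sham pups themselves spread widely. In both forebrain regions most members had fold changes just below 0, and 1 member met the criteria in each. The criteria were a fold change above 1.5 with an unadjusted p under 0.05 at a mean above 10 CPM, after those used in the study. No member passed an adjusted p of 0.05 in any region (edgeR quasi-likelihood test on the libraries of each region, in which 5, 2 and 2 members had an unadjusted p under 0.05).

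In the cerebellum, the summed level of the 68 members was 24760, 29680, 54400 and 42730 CPM in sham pups 2, 3, 6 and 8, and 54060, 44070, 59720 and 44060 CPM in HIBI pups 1, 4, 5 and 7. The HIBI pups were close together, whereas sham pup 6 lay within their range and sham pups 2 and 3 lay far below it. In the striatum/thalamus, the sham libraries ran from 98240 to 118700 CPM and the HIBI libraries from 88120 to 108700 CPM. In the cortex, they ran from 83990 to 101800 CPM and from 78040 to 88710 CPM. The groups overlapped in all 3 regions.

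**Figure D4:**
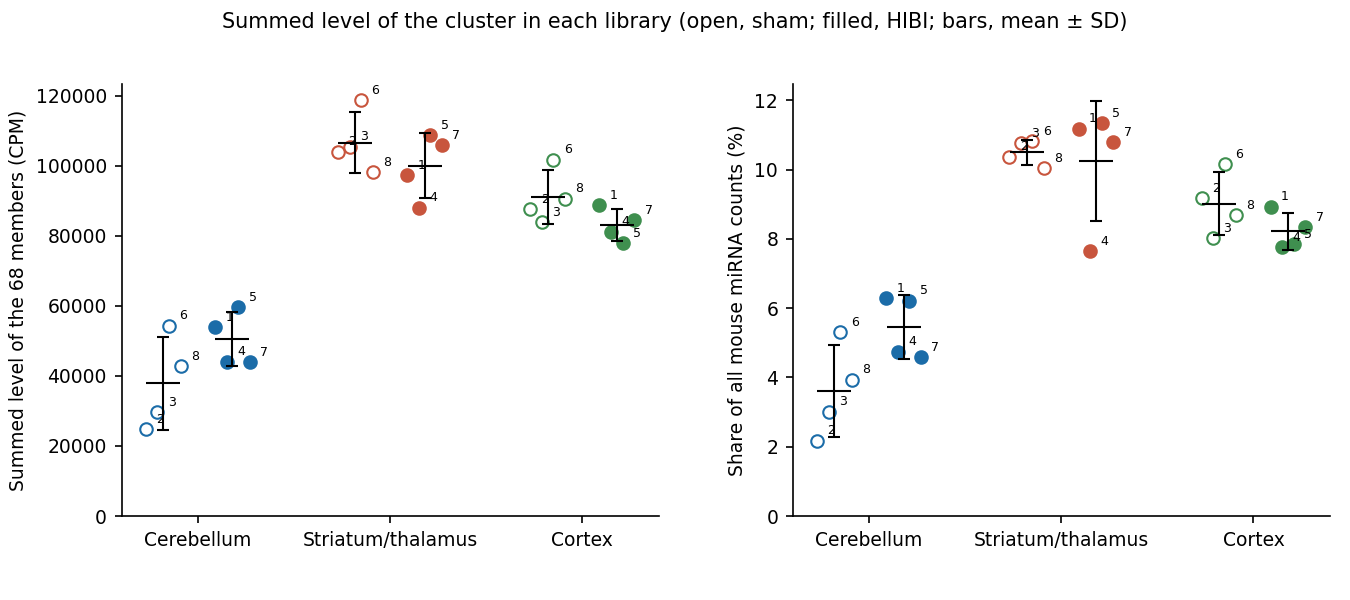
Summed level of the 68 members (left, CPM) and their share of mouse miRNA counts before scaling (right, percent) in each library by region, with pup numbers, open symbols for sham, filled symbols for HIBI and the mean ± SD of each group of 4. The cerebellum libraries sit at 24760 to 59720 CPM, below every library of the forebrain, and sham pups 2 and 3 are the lowest.

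Of 44 members tested in the cerebellum, 43 had a log2 fold change above 0 between HIBI and sham, and the exception was miR-485-3p at −0.08. Over all miRNAs tested in this region, 57.4% were above 0. The median was 0.52 over the members, 0.11 over all miRNAs and 0.03 over the miRNAs outside the cluster. The criteria were met by 4 members, or 9.09% of the 44, against 7.83% of all miRNAs tested, so the number called was near the background. It was 1 with upper-quartile scaling and 11 with library size only. Members upstream of the annotated Mirg start were above 0 in 27 of 27 cases (median 0.54), and those within it in 16 of 17 (median 0.44). The 5p strands were above 0 in 21 of 21 cases and the 3p strands in 22 of 23. The members were measured in the same libraries, several as strands of the same hairpin, and are not independent of each other.

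In the cerebellum the criteria were met by both arms of miR-410, miR-409-5p and miR-376b-3p. MiR-410-5p had 14.9, 10.2, 36.6 and 25.8 CPM in sham pups 2, 3, 6 and 8, and 31.5, 37.7, 56.4 and 43.1 CPM in HIBI pups 1, 4, 5 and 7. All HIBI pups but pup 1 were above all sham pups, and the groups overlapped through sham pup 6. The log2 fold change was 0.99 ± 0.39 (edgeR p = 0.0254, adjusted p = 0.432, and p = 0.0571 in a two-sided exact permutation test over the 70 arrangements of 4 against 4 pups). That test cannot give a p below 0.0286.

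MiR-410-3p, from the other arm of that hairpin, had 1485, 2348, 3511 and 2539 CPM in the sham pups and 5424, 3090, 3187 and 3020 CPM in the HIBI pups, in the same order. Sham pup 6 was above 3 of the HIBI pups, and HIBI pup 1 stood well above all others (0.61 ± 0.28, edgeR p = 0.0480, exact permutation p = 0.114). MiR-409-5p had 345.7, 491.8, 815.1 and 591.1 CPM in sham and 1100, 697.4, 920.6 and 633.2 CPM in HIBI pups. Sham pup 6 lay above HIBI pups 4 and 7 (0.61 ± 0.27, edgeR p = 0.0432, exact permutation p = 0.114). MiR-376b-3p had 89.2, 118.1, 300.1 and 218.3 CPM in sham and 173.1, 263.8, 519.6 and 351.3 CPM in HIBI pups. Sham pup 6 lay above HIBI pups 1 and 4, and sham pup 8 above HIBI pup 1 (0.89 ± 0.40, edgeR p = 0.0462, exact permutation p = 0.171). The adjusted p from edgeR was 0.432 for each of the 4.

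MiR-300-3p had 250.6, 401.5, 550.1 and 425.5 CPM in sham and 678.5, 547.1, 602.2 and 492.0 CPM in HIBI pups, where sham pup 6 overlapped HIBI pups 4 and 7. It had an unadjusted p under 0.05 without reaching 1.5-fold, at 406.9 ± 122.9 CPM in sham and 580.0 ± 79.6 CPM in HIBI pups (log2 fold change 0.54 ± 0.24, edgeR p = 0.0435, adjusted p = 0.432, exact permutation p = 0.0857). MiR-154-5p, at a mean of 9.09 CPM in this region, was below the minimum for the test. Its levels were 4.98, 5.11, 9.02 and 4.43 CPM in sham and 11.6, 13.9, 14.9 and 8.79 CPM in HIBI pups, so that sham pup 6 and HIBI pup 7 overlapped. With the minimum lowered to 1 CPM its log2 fold change was 1.10 ± 0.43 (edgeR adjusted p = 0.521).

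The other members of highest level had cerebellar fold changes above 0 without meeting the criteria. MiR-487b-3p had 4241, 4787, 10290 and 9082 CPM in sham and 8142, 9054, 12420 and 10030 CPM in HIBI pups. Sham pups 2 and 3 were lowest and the other 2 sham pups lay among the HIBI pups (0.52 ± 0.29, edgeR adjusted p = 0.432). MiR-323-3p had 2491, 2929, 5492 and 3905 CPM in sham and 6886, 4088, 5837 and 3791 CPM in HIBI pups (0.51 ± 0.27, edgeR adjusted p = 0.432). The log2 fold change was 0.30 ± 0.24 for miR-541-5p (edgeR adjusted p = 0.533), 0.47 ± 0.31 for miR-382-5p (edgeR adjusted p = 0.478) and 0.28 ± 0.24 for miR-409-3p (edgeR adjusted p = 0.56). The order of the sham pups was that of the summed level in miR-487b-3p and miR-323-3p, with pup 2 lowest and pup 6 highest.

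None of the 44 members was separated without overlap in the cerebellum, while 4.61% of all miRNAs tested were. The calls depended on single pups. The number of members that met the criteria was 0 without sham pup 2 and 0 without sham pup 3, 2 without HIBI pup 5, 11 without HIBI pup 7 and 19 without sham pup 6. The number above 0 stayed between 41 and 44 of those tested, and their median between 0.37 and 0.70, whichever pup was left out. Against the mean of the sham pups, the median member was lower by 0.60 on the log2 scale in sham pup 2 and by 0.20 in sham pup 3, and higher by 0.59 in sham pup 6 and 0.21 in sham pup 8. It was higher by 0.64, 0.32, 0.64 and 0.23 in HIBI pups 1, 4, 5 and 7.

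Other markers differed in the same cerebellum libraries. The summed level of 3 erythrocyte miRNAs was 794 to 1246 CPM in sham and 585 to 747 CPM in HIBI pups, without overlap. The difference lay in miR-486a-5p (556.6 to 1083 CPM in sham and 335.6 to 562.9 CPM in HIBI pups, log2 fold change −0.86), while miR-451a ran from 142.7 to 489.3 CPM and from 136.8 to 310.0 CPM. Of the skeletal muscle miRNAs, miR-206-3p had 338.9 to 522.4 CPM in sham and 268.2 to 328.3 CPM in HIBI pups, without overlap, and miR-1a-3p had 43.2 to 136.8 CPM and 81.4 to 377.5 CPM (log2 fold changes −0.53 and 1.05). The summed level of 5 choroid plexus and ciliated cell miRNAs was 2612 to 9237 CPM in sham and 2550 to 3809 CPM in HIBI pups. MiR-10a and miR-10b, which mark the hindbrain, summed to 579 to 1942 CPM in sham and 505 to 950 CPM in HIBI pups, with overlap. Of these lists, miR-34b-5p (a ciliated cell miRNA) had no count in the cerebellum of the HIBI pups, and all others were detected in both groups. Their part in the result was not tested.

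In the striatum/thalamus, 13 of 49 members were above 0, and the median was −0.11 against −0.03 for all 436 miRNAs tested. In the same libraries the neuronal miR-124-3p had 40000 to 53640 CPM in sham and 28590 to 36470 CPM in HIBI pups, without overlap (log2 fold change −0.40), and the oligodendrocyte miR-219a-2-3p had 1847 to 4417 CPM and 1021 to 2735 CPM (log2 fold change −0.61). Their part in the result was not tested. Only miR-668-5p met the criteria, 1 member of 49 against 2.75% of all miRNAs. It had 17.5, 10.7, 11.7 and 10.02 CPM in sham pups 2, 3, 6 and 8, and 22.6, 40.0, 23.0 and 23.6 CPM in HIBI pups 1, 4, 5 and 7. Every HIBI pup was above every sham pup, the only such member in this region, where 1.83% of all miRNAs were separated. The log2 fold change was 1.11 ± 0.35 (edgeR p = 0.00882, adjusted p = 0.98, and exact permutation p = 0.0286, the smallest that test can give), and it kept to the criteria without any 1 of the pups. Its levels were near the minimum, so that they stood for few counts. MiR-379-5p, from the first hairpin of the cluster, had 2711, 3379, 4053 and 3412 CPM in sham and 2532, 1769, 2741 and 2550 CPM in HIBI pups. Only HIBI pup 5 exceeded the lowest sham pup (−0.51 ± 0.21, edgeR p = 0.0335, adjusted p = 0.98, exact permutation p = 0.0571). The small negative shift depended on single pups: 29 members were above 0 without HIBI pup 4 (median 0.04), 25 without sham pup 6 (median 0.01) and 22 without sham pup 8. The median was −0.02 without sham pup 3 and −0.18 without HIBI pup 7, and 3 members were called without sham pup 2 or without HIBI pup 5.

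In the cortex, 16 of 49 members were above 0, with a median of −0.10 against −0.02 for all 410 miRNAs tested. Only miR-487b-5p met the criteria, 1 of 49 against 3.41% of all miRNAs. It had 11.5, 11.5, 13.8 and 7.00 CPM in sham and 25.7, 21.8, 9.46 and 21.7 CPM in HIBI pups, with HIBI pup 5 among the sham values (0.81 ± 0.35, edgeR p = 0.0423, adjusted p = 0.914, exact permutation p = 0.114). The number called was 0 without HIBI pup 1 or sham pup 2, 3 or 8, and 2 without sham pup 6. MiR-154-3p had 54.4, 57.2, 63.8 and 48.6 CPM in sham and 80.0, 66.9, 80.6 and 101.3 CPM in HIBI pups. Every HIBI pup was above every sham pup, at a fold change under the criterion (0.54 ± 0.20, edgeR p = 0.0208, adjusted p = 0.782, exact permutation p = 0.0286).

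The second most abundant member, miR-541-5p, was separated the other way in the cortex. It had 14390, 11890, 14090 and 11530 CPM in sham and 11270, 11500, 10380 and 10960 CPM in HIBI pups. All HIBI pups were lower, though HIBI pup 4 and sham pup 8 were nearly equal (log2 fold change −0.26, edgeR p = 0.0789, exact permutation p = 0.0286). These were 2 of the 49 members without overlap, against 3.17% of all miRNAs tested. MiR-410-5p had 50.4, 54.9, 55.3 and 72.5 CPM in sham and 19.2, 12.97, 28.7 and 67.4 CPM in HIBI pups. Pups 1, 4 and 5 were below every sham pup and pup 7 was not (−0.87 ± 0.42, edgeR p = 0.0631, adjusted p = 0.914, exact permutation p = 0.114). Its p was under 0.05 with a minimum of 1 CPM (0.0433), with no minimum (0.00462), in edgeR's exact test (0.0393) and with DESeq2 (0.032).

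The arm ratios gave no call between HIBI and sham in any region, as for all hairpins tested, of which 0% were called by limma at an adjusted p under 0.05. At an unadjusted p under 0.05, limma gave 1, 0 and 1 member hairpins in the cerebellum, striatum/thalamus and cortex, against 9, 6 and 3 of all 125. These were miR-668 in the cerebellum (difference −1.21) and miR-410 in the cortex (difference −1.05). In the cerebellum miR-668-5p had 0.433 to 11.4 CPM, so the ratio of miR-668 rested on few 5p counts.

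**Figure D5:**
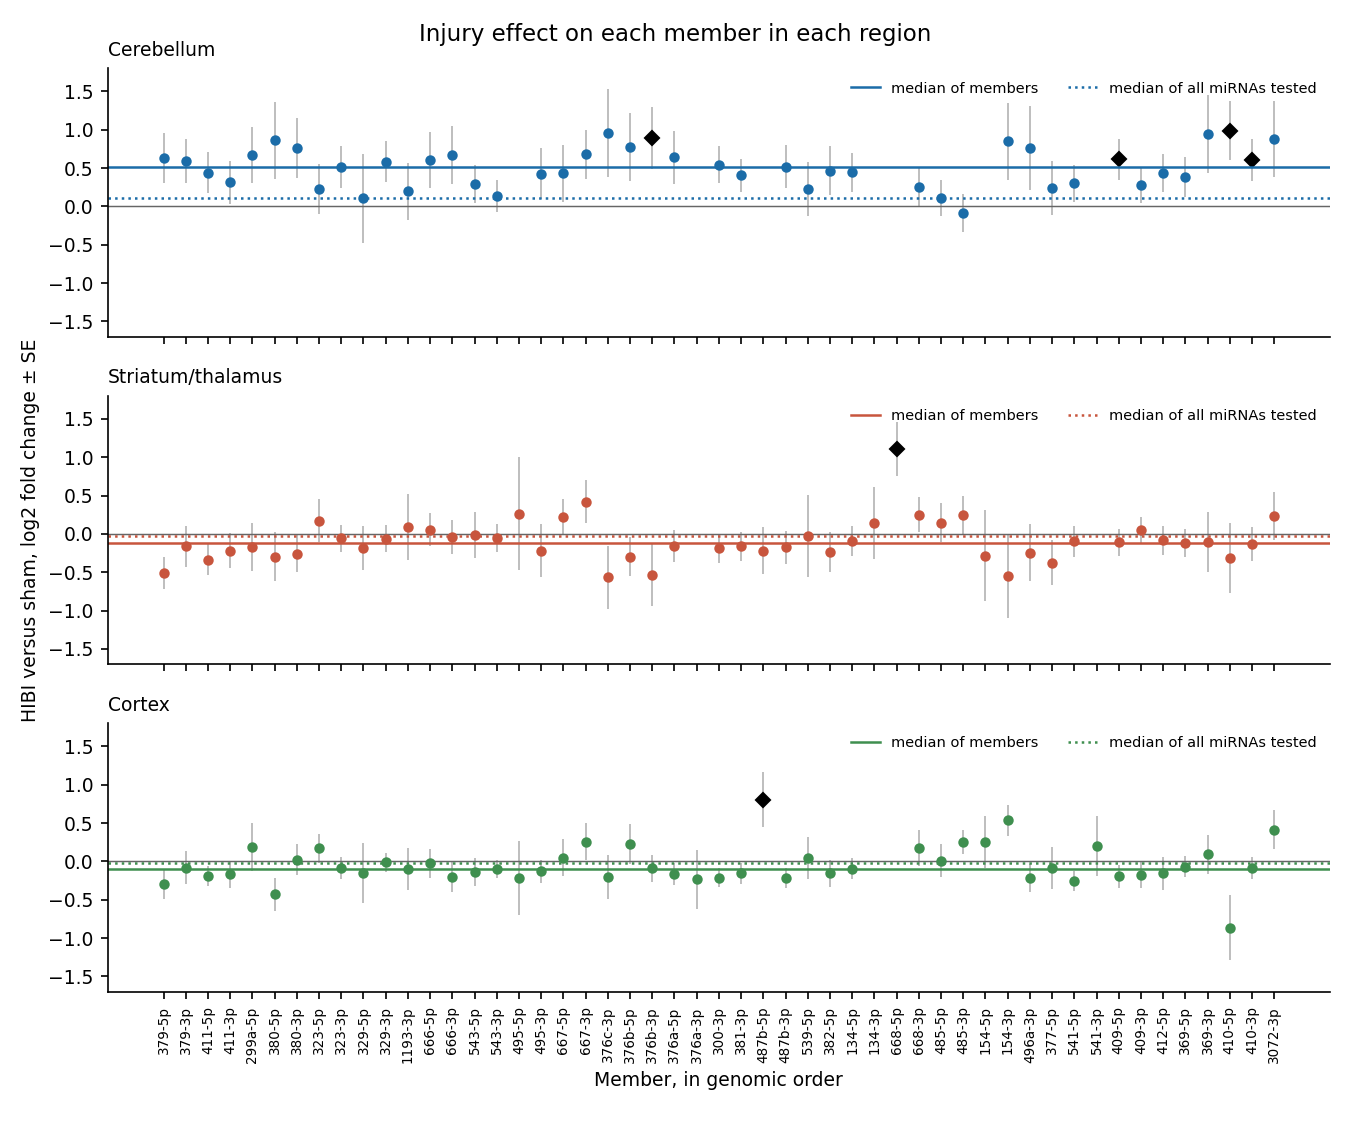
HIBI against sham for each reported member in genomic order, a panel for each region, with the log2 fold change and 1 SE, black diamonds for the members that met the criteria, a solid line for the median of the members and a dotted line for the median of all miRNAs tested. In the cerebellum 43 of 44 points lie above 0, around a median of 0.52, and in the other regions the medians are −0.11 and −0.10.

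Whether the effect of HIBI differed between regions was tested directly, by subtracting the cerebellum's effect from the mean of both forebrain effects (edgeR quasi-likelihood test, 24 libraries). The difference was below 0 in 47 of 51 members, with a median of −0.55 against −0.08 for all 478 miRNAs. At an unadjusted p under 0.05, 14 members differed, all in this direction, against 7.11% of all miRNAs, and no member passed after adjustment (smallest edgeR adjusted p = 0.209). It uses the same cerebellum libraries as the comparison of HIBI with sham there and is not a separate observation. MiR-300-3p differed by −0.69 ± 0.23 (edgeR adjusted p = 0.209), miR-379-5p by −0.98 ± 0.33 (edgeR adjusted p = 0.209) and miR-409-5p by −0.71 ± 0.26 (edgeR adjusted p = 0.227).

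All 30 members upstream of the annotated Mirg start were below 0, with 11 at p under 0.05. The 4 members above 0 were both arms of miR-485 and of miR-668, whose hairpins lie within Mirg, and none of these had an edgeR p under 0.05. For miR-379-5p the log2 fold change between HIBI and sham was 0.64 ± 0.33 in the cerebellum, against −0.51 ± 0.21 in the striatum/thalamus and −0.29 ± 0.19 for cortex. For miR-300-3p they were 0.54 ± 0.24, −0.18 ± 0.19 and −0.21 ± 0.12, and for miR-410-5p 0.99 ± 0.39, −0.31 ± 0.45 and −0.87 ± 0.42. With the pup as replicate block, 24 members had an edgeR p under 0.05, and the adjusted p of miR-379-5p was 0.0769 by edgeR. The share of all miRNAs under 0.05 in that fit is not given here, so this count has no background beside it. In the fit without the block, the number of members was 9 without pup 1, 4 without pup 2, 8 without pup 3, 9 without pup 5 and 24 without pup 6. The share of all miRNAs with a pup left out is not given here either, so these counts show only how far the number moved.

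The 21 other miRNAs of the Dlk1-Dio3 locus above the minimum were counted in the same way. In the cerebellum 15 of the 17 tested were above 0 between HIBI and sham, with a median of 0.34, in the striatum/thalamus 11 of 21 and in the cortex 7 of 19. None met the criteria in any region. The difference between forebrain and cerebellum was below 0 in 21 of 21, with a median of −0.38 and 4 at an edgeR p under 0.05. Of all miRNAs tested, 7.11% were below 0 at that p.

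In the cerebellum the members also varied together among pups of the same group. Over the 8 cerebellum libraries, the median Pearson correlation between pairs of the 31 members above 100 CPM, taken on deviations from the group mean, was 0.686, and it was 0.018 between pairs of all 226 miRNAs above that level. Over the cortex libraries it was 0.162 for the members and 0.015 for all, and over those of the striatum/thalamus 0.062 and 0.028, which are close. These values describe 8 libraries in each region, in which all pairs share depth, scaling and tissue.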

How the data were processed

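Tables of raw miRNA counts, 1 for each region, were analysed as deposited. The authors made the counts from small RNA libraries (200 ng of RNA, NEXTFLEX kit, NextSeq 550) by aligning reads with Bowtie2 to mature miRBase sequences. Tool versions, the miRBase release and the handling of reads that match several entries are not given in the sources used here. The tables also hold the authors' own edgeR comparisons, which were not used. Of 1551 entries, the 1531 mouse ones were kept, and 20 castor bean entries (0.000156% of counts) were left out. No 2 libraries of a group agreed within sampling noise (chi-square over degrees of freedom 26.5 for the closest pair).

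The members and lists were chosen with earlier results of these data known. Members were taken by name and reported where their mean raw CPM exceeded 10 in a region. Named members are the 6 of highest level, those that met the criteria for HIBI against sham in a region or that the study shows for one, the 3 called members of smallest p in each direction of each region comparison, the 3 of smallest p for the injury effect across regions, the 3 called hairpins of smallest p in each arm comparison and those of extreme arm ratio. Other members with values were chosen after their values were seen. Sequences and hairpin positions came from RefSeq tables (GRCm38.p6).

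Counts were fitted with edgeR 4.0.16 (quasi-likelihood, TMM) in R 4.3.3, with all miRNAs above the minimum and Benjamini-Hochberg adjustment over all of them. HIBI and sham were compared within a region over its 8 libraries. Region differences and the test of injury effects across regions came from 1 fit to 24 libraries. Arm ratios were fitted with limma 3.58.1. Exact permutation tests (two-sided) used log2(CPM + 1), with levels scaled over 24 libraries. The fits were tested on simulated counts.

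The same pup gave all 3 regions. Deviations from the group mean over 379 miRNAs correlated between regions of a pup with medians of 0.181, 0.322 and 0.255, and were above 0.1 in 6, 7 and 7 of the 8 pups. HIBI and sham pups share no number, so the pup could be a block only across regions. Alternatives were other scalings, filters, DESeq2 1.42.0, edgeR's exact test, sham libraries alone, the pup as block and each pup left out.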

Additional observations from a re-analysis of the deposited data

Results flagged for a closer look

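Of 162 groups of 4 libraries over 27 named measures, 11 held a library far from the other 3 of its group by Dixon's criterion, where chance gives about 5%. In the cerebellum these were miR-154-5p in sham pup 6 (9.02 CPM, others 4.43 to 5.11), miR-379-5p in HIBI pup 5 (4042 CPM, others 1987 to 2300), miR-382-5p in HIBI pup 5 (6483 CPM, others 3748 to 3838), miR-410-3p in HIBI pup 1 (5424 CPM, others 3020 to 3187) and miR-487b-5p in HIBI pup 1 (22.6 CPM, others 3.90 to 7.05). The log2 arm ratio of miR-487b in that same library was −8.47 (others −11.1 to −10.74). In the striatum/thalamus they were miR-323-3p in HIBI pup 7 (16340 CPM, others 11540 to 12270), miR-376b-3p in sham pup 6 (779.3 CPM, others 208.8 to 262.8), miR-487b-5p in sham pup 6 (46.6 CPM, others 25.04 to 28.1) and miR-668-5p in HIBI pup 4 (40.0 CPM, others 22.6 to 23.6). In the cortex it was the arm ratio of miR-487b in sham pup 8 (−11.51, others −10.75 to −10.69).

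The effect of HIBI differed between forebrain and cerebellum at an unadjusted p under 0.05 for 8 of the 22 named members tested, each with the lower effect in the forebrain, where 7.11% of all miRNAs tested had a lower effect at that p. MiR-300-3p, miR-379-5p and miR-409-5p had been named for the smallest p in this same comparison. MiR-376b-3p, miR-409-5p and both arms of miR-410 had been named for meeting the criteria in the cerebellum, whose effect is subtracted here. The 8 of 22 therefore cannot be weighed against the 7.11%. The differences on the log2 scale, with adjusted p by edgeR, were −0.69 for miR-300-3p (adjusted p = 0.209), −0.56 for miR-329-3p (adjusted p = 0.285), −1.15 for miR-376b-3p (adjusted p = 0.261), −0.98 for miR-379-5p (adjusted p = 0.209), −0.71 for miR-409-5p (adjusted p = 0.227), −0.67 for miR-410-3p (adjusted p = 0.261), −1.52 for miR-410-5p (adjusted p = 0.248) and −0.66 for miR-487b-3p (adjusted p = 0.265). None passed adjustment.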

How the results depend on the processing

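For HIBI against sham in the cerebellum, the number of members called was 1 with upper-quartile scaling, 11 with library size only, 10 with a minimum of 1 CPM, 11 with no minimum and 0 at an adjusted p under 0.05, and it ran from 0 to 19 with each pup left out. Scaling moved the median of all miRNAs there from 0.11 to −0.02 (upper quartile) and 0.27 (library size), with 41 to 44 members above 0 throughout and their median at 0.40 to 0.66. In the striatum/thalamus the number called was 2 with no minimum and 0 after adjustment, and with each pup left out 1 to 3 were called, 12 to 29 were above 0 and the median ran from −0.18 to 0.039. In the cortex it was 4 with a minimum of 1 CPM, 5 with no minimum, 2 with edgeR's exact test, 0 after adjustment and 0 to 2 with each pup left out. Between cortex and striatum/thalamus, 7 were called in sham libraries alone, and with no minimum 11 were called higher and 4 lower, against 4 and 11. For the injury effect of forebrain minus cerebellum, 23 were called with library size only and 24 with the replicate block. With no minimum, 25 of all 68 members were called, of which 24 were lower and 1 was higher. The number called was 0 after adjustment and 4 to 24 with each pup left out. The share of all miRNAs in these alternative fits is not given here. The number above 0 was 2 with DESeq2 size factors, library size, a minimum of 1 CPM, no minimum or DESeq2, and 2 to 7 with each pup left out. With no minimum, the 2 were among the 51 reported members, and 7 of all 68 were above 0. Arm ratio calls between cortex and cerebellum were 0 with both arms above 1 CPM, 0 with the replicate block and 0 to 2 with each pup left out. They were 1 to 5 between striatum/thalamus and cerebellum with each pup left out, and 5 between cortex and striatum/thalamus with a pseudocount of 5, under which the miR-541 difference between cortex and cerebellum turned from −0.39 to 0.0047. For miR-487b that difference ran from −0.27 to 0.16 with each pup left out. Where these counts moved, the cause was not tested. Among single named members, 472 values under an alternative kept direction and call, 58 lost the call, 5 gained it and 3 changed sign, and the block changed no other call. Depth limits the members near 10 CPM, and 4 pups in a group limit every comparison with sham.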
